A study of Mus musculus with 378 samples.

Results

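Pancreatic islets with much glucagon RNA were compared with islets with little. The islets came from Diversity Outbred mice, each of which carries a mix of founder genomes of its own, and all animals were fed a diet rich in fat and sugar (45% fat). The variance-stabilised value of Gcg, the gene of glucagon, was z-scored separately within female and male libraries, and the 94 libraries with the highest scores (the high-Gcg group) were set against the 94 with the lowest (the low-Gcg group). Libraries were thus chosen by a measured value, the level of Gcg. The high group held 47 females and 47 males and the low group 50 females and 44 males, and the other 190 libraries of the series (91 females and 99 males) lay between them. Sex was read from the letter in the titles, and the numbers in the titles name different mice, so a replicate here is an animal. The labels give no treatment or genotype that differs between the 2 groups, and founder alleles were not analysed here.

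Glucagon is the hormone of the alpha cell, an endocrine cell that releases it when blood glucose is low, and its RNA is among the most abundant in that cell. The transcription factors IRX1, IRX2 and POU3F4 are among those that mark alpha cells in the mouse, whereas beta cells make insulin, delta cells somatostatin, PP cells pancreatic polypeptide and epsilon cells ghrelin. In bulk islet RNA, fewer cells of a type and less RNA per cell cannot be told apart.

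Gcg and 3 genes that differed with it, Irx2, Sstr2 and Sst, are shown by the 250 bases before their RefSeq start on the build GRCm38.p6, 5′ to 3′ on the gene's strand, because these stretches lie just before the starts of genes that moved together.
Gcg (chr2:62483654-62483903, minus strand): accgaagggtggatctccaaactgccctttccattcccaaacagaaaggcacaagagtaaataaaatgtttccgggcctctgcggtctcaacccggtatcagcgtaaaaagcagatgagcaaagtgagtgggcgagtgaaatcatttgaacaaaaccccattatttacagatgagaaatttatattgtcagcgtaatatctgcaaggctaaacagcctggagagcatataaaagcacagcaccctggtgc
Irx2 (chr13:72628570-72628819, plus strand): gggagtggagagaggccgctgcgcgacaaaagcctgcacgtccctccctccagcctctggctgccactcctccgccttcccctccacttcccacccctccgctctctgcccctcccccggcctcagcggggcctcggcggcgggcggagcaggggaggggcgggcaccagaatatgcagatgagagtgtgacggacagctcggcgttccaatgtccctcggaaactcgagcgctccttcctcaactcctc
Sstr2 (chr11:113619077-113619326, plus strand): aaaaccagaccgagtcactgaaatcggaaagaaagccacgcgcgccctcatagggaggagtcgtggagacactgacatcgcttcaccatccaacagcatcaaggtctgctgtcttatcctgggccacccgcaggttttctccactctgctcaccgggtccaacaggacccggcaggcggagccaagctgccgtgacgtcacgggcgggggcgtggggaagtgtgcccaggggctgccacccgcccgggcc
Sst (chr16:23890845-23891094, minus strand): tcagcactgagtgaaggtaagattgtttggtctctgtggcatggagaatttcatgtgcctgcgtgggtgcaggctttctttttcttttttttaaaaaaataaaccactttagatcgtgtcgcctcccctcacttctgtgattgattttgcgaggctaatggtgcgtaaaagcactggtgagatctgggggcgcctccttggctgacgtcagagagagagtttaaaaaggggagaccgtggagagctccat
Both strands of these windows were searched for 3 motifs chosen with the expression results known: TAATTA (bound by homeodomain factors), TGTTTAC (bound by FOXA factors) and TGCTGAC (a MAF site). There were 0 matches in all 4 windows, so no letters are in capitals. The 3 motifs occur in 4.84%, 3.17% and 3.81% of the 32851 promoter windows of this length. No match says only that these letters are not in these windows.

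Total counts ran from 15.1 to 68.8 M counts per library (median 34.8 M) and averaged 33.5 ± 6.37 M (SD, n = 94) in the high and 33.9 ± 8.48 M (SD, n = 94) in the low group (two-sided permutation test within sex and number band, p = 0.374, adjusted over 3 properties 0.374). Ins1 and Ins2 together took 11.6% ± 2.90 of the counts in the high and 14.4% ± 3.78 in the low group (p = 1e-05, the smallest that 100000 permutations give, adjusted p = 3e-05). Mitochondrially encoded RNA took 3.24% ± 0.716 and 3.05% ± 0.636 (p = 0.021, adjusted p = 0.0316), and its part in the results was not tested. With library sizes computed without 8 hormone and related genes, 98.9% of the calls below were made in the same direction. The labels name no batch. Earlier work on these data found that counts differed strongly between bands of mouse numbers. The variance-stabilised values that chose the libraries did not. Therefore 4 bands of 100 mouse numbers each were used as a covariate beside sex. The high group held 27, 23, 22 and 22 libraries of bands 1 to 4 and the low group 27, 21, 22 and 24.

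Gcg itself, which chose the libraries, is described without a test. It ran from 24001 to 69197 CPM (median 37604) in high-Gcg females and from 5745 to 20378 CPM (median 14145) in low-Gcg females, and from 11609 to 45359 CPM (median 18537) in high-Gcg males and from 1161 to 8386 CPM (median 5762) in low-Gcg males. CPM are counts scaled to a common library total. The last library inside the high group had a z-score of 0.717 and the first outside it 0.709, and the corresponding scores at the low group were -0.653 and -0.646. The step into either group is small.

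Beside Gcg, 16911 genes were tested with edgeR's quasi-likelihood test. The call was an adjusted p (Benjamini-Hochberg over all genes) under 0.05. It named 6845 genes (40.5% of those tested), of which 3117 were higher (18.4%) and 3728 lower (22%) in the high-Gcg group. Large differences were few: 1.81% of genes passed the test at 1.5-fold higher or more and 1.46% at 1.5-fold lower or more, while 96 genes (0.568%) and 38 genes (0.225%) passed 2-fold. The median log2 difference of all tested genes was -0.0107. With sex as the only covariate, 2528 genes were higher (14.9%) and 2922 lower (17.3%), 32.2% in all, and without the 15 libraries with a Gcg z-score under -2 (7 females and 8 males), an alternative chosen after seeing the data, 2431 were higher (14.3%) and 2779 lower (16.3%), 30.6% in all. The direction of 5192 of the called genes was the same in all 4 number bands and in both sexes fitted alone.

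The clearest group comprised the 5 transcription factors of alpha cells, all of which (5 of 5) were higher in the high-Gcg group, with a median log2 difference of 1.34 (0.77 by limma on the deposited variance-stabilised values). All 5 were also called in each sex alone. Irx2 (chr13:72628820-72634198), an Iroquois homeobox factor, ran from 13.3 to 40.9 CPM (median 17.9) in high-Gcg females and from 3.09 to 17.8 CPM (median 9.47) in low-Gcg females. In males it ran from 6.91 to 33.9 CPM (median 11) in high-Gcg males and from 1.13 to 11.7 CPM (median 3.85) in low-Gcg males. Every one of the 47 high libraries of either sex lay above the median of the low libraries, and 24 of the female and 20 of the male high libraries exceeded the highest low library, while the others overlapped with the low group. The log2 difference of Irx2 was 1.34 ± 0.07 (SE, adjusted p = 3.23e-41).

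Irx1 (chr13:71957921-71963723), which lies on the same chromosome as Irx2, had medians of 3.51 against 2.17 CPM in females and 2.62 against 0.938 CPM in males and a difference of 1.37 ± 0.11 (SE, adjusted p = 3.48e-24). Pou3f4 (chrX:110814280-110817207), a POU factor, had medians of 0.922 against 0.352 CPM in females and 0.446 against 0.169 CPM in males and a difference of 1.35 ± 0.12 (SE, adjusted p = 4.62e-21). Its lowest low-Gcg male library was at 0 CPM. Irx1 CPM ran higher in most libraries of band 4 than in the other number bands. The medians in CPM pool the bands and are not adjusted for them, whereas the test is.

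**Figure D1:**
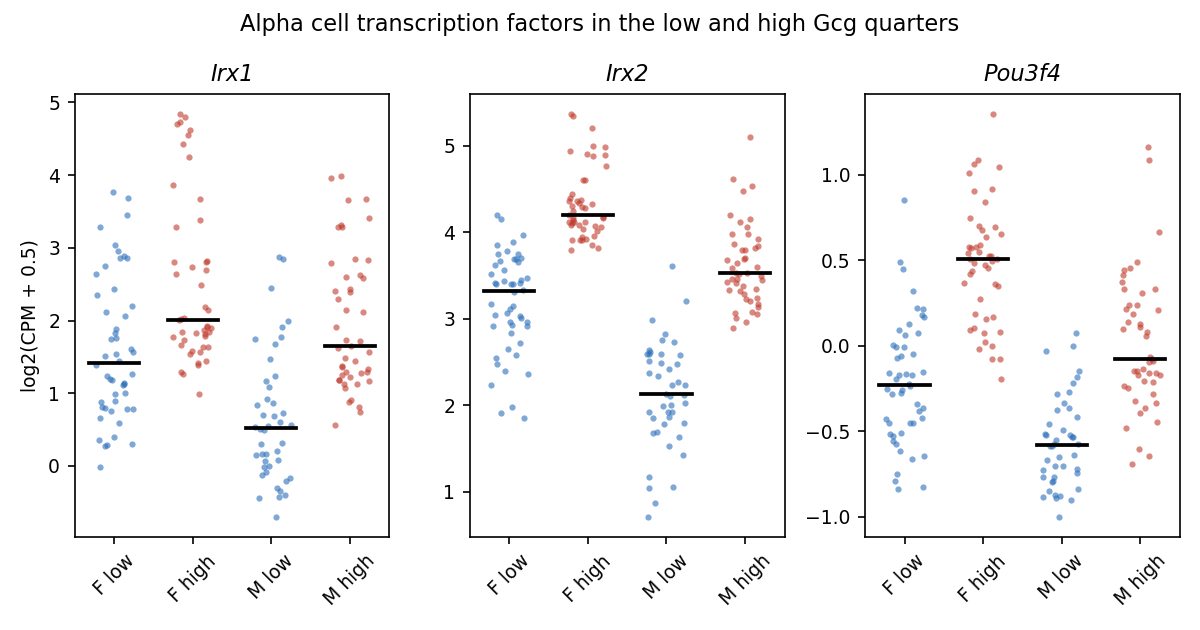
Values of Irx1, Irx2 and Pou3f4, 3 of the alpha cell transcription factors, in each library, as log2(CPM + 0.5) on the vertical axis, for females (F) and males (M) of the low-Gcg (blue) and high-Gcg (red) groups; points are libraries and black lines medians. In each panel and sex the median of the high group lies above that of the low group, and the clouds overlap. The values pool the number bands and are not adjusted for them.

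Among 8 other tested alpha cell markers 5 were higher and 1 lower, with a median of 0.35. Ttr, which encodes the thyroid hormone carrier transthyretin, had medians of 1296 against 550.2 CPM in females and 779 against 466 CPM in males and a log2 difference of 0.84 ± 0.09 (SE, adjusted p = 3.86e-15). Smarca1, a chromatin remodeller, differed by 0.57 ± 0.06 (SE, adjusted p = 5.63e-17), and in females 16 of 47 high libraries lay above the highest low library. The amino acid transporter Slc38a5 differed by 0.73 ± 0.14 (SE, adjusted p = 4.58e-06). Smaller differences were found for the mitochondrial protein gene Higd1a, at 0.46 (adjusted p = 0.00533), and for the cationic amino acid transporter Slc7a2, at 0.23 (adjusted p = 2.92e-05). Higd1a and Slc7a2 had whole-number counts in only 0.79% and 2.38% of libraries, so their reads may be divided among features and their values are less certain. The vitamin D binding protein gene Gc, an alpha cell gene in mouse islets, was the 1 marker that was lower, at -0.54 ± 0.13 (SE, adjusted p = 0.000345), and did not pass with 6 scores of other cell types as covariates, at -0.19 (adjusted p = 0.218). Tmem27 and Sphkap did not pass, at 0.01 (adjusted p = 0.924) and 0.04 (adjusted p = 0.511).

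Of 14 receptors known on alpha cells 6 were higher and 2 lower (median 0.20). Avpr1b, the pituitary type vasopressin receptor, ran from 26.3 to 142.3 CPM (median 56.3) in high-Gcg females and from 6.85 to 56.8 CPM (median 24.2) in low-Gcg females. In males it ran from 10.4 to 85.7 CPM (median 26.5) in high-Gcg males and from 1.1 to 20.7 CPM (median 8.64) in low-Gcg males, and the difference was 1.48 ± 0.10 (SE, adjusted p = 1.48e-28). High and low libraries overlapped in both sexes, with 21 and 30 of the 47 high libraries beyond the highest low one. Sstr2 (chr11:113619342-113626028), the somatostatin receptor through which delta cells restrain glucagon release, ran from 9.02 to 28.8 CPM (median 14.7) in high-Gcg females and from 2.7 to 11.3 CPM (median 7.21) in low-Gcg females. The male range was from 4.82 to 29.1 CPM (median 8.37) in high-Gcg males and from 1.24 to 8.55 CPM (median 3.04) in low-Gcg males, with a difference of 1.31 ± 0.07 (SE, adjusted p = 2.55e-40). In females 41 of 47 high libraries exceeded every low library, and the others overlapped with the low group. The adrenergic receptor Adrb1 differed by 1.21 ± 0.13 (SE, adjusted p = 2.17e-15) at low counts, with 0 counts in some libraries of each group, and the oxytocin receptor Oxtr by 0.60 ± 0.09 (SE, adjusted p = 4.73e-09).

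Among 12 ion channel genes of alpha cells 2 were higher and 3 lower (median -0.03). These counts lie near the shares of all tested genes, 18.4% higher and 22% lower, so the list as a whole did not stand out. The 2 that were higher were both glutamate receptor subunits, Gria3 at 0.89 ± 0.07 (SE, adjusted p = 4.29e-24) and Grik2 at 1.11 ± 0.10 (SE, adjusted p = 4.88e-19). Of 9 genes of prohormone processing, 1 was higher and 1 lower, no more than those shares. The higher was Pcsk2, the convertase that cuts proglucagon to glucagon, at 0.12 ± 0.03 (SE, adjusted p = 0.00017), a difference of small size.

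Genes whose variance-stabilised values followed Gcg closely over all libraries, by Spearman's rho after z-scoring within each sex, are given as a description. Irx2 led with a rho of 0.86, followed by Sstr2 with 0.80, Sgce with 0.80, Mctp2 with 0.76, Ugt8a with 0.73, and Galnt13, Eef1a2 and Gpx3 each with 0.72. These libraries include the groups, so the values repeat the choice of libraries in part. Sgce, which encodes epsilon-sarcoglycan, differed by 1.00 ± 0.06 (SE, adjusted p = 1.31e-38), with medians of 12.6 against 6.95 CPM in females and 7.75 against 3.21 CPM in males. Its neighbour Peg10, a gene derived from a retrotransposon, differed by 1.30 ± 0.09 (SE, adjusted p = 4.23e-30). Both are known as imprinted genes expressed from the paternal copy, and they lie head to head at chr6:4674350-4747207 and chr6:4747306-4760517. Among the largest differences were also Edn3, the gene of endothelin 3, at 1.58 ± 0.12 (SE, adjusted p = 6.59e-27), Ugt8a, a galactosyltransferase of myelin lipids, at 1.52 ± 0.10 (SE, adjusted p = 3.13e-30), and Vwde, at 1.30 ± 0.10 (SE, adjusted p = 7.92e-25). Mctp2, a membrane protein with C2 domains, differed by 1.27 (adjusted p = 2.48e-37), the glycosyltransferase Galnt13 by 1.22 (adjusted p = 1.56e-30), the elongation factor Eef1a2 by 1.07 (adjusted p = 2.37e-30), and the secreted glutathione peroxidase Gpx3 by 0.77 (adjusted p = 1.25e-21). In females 37 of 47 high libraries exceeded every low library in Gpx3, against 0 in males.

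Markers of the delta cell were higher too: 7 of 8 passed upwards and 1 downwards, with a median of 0.63. Rbp4, the retinol carrier that mouse delta cells express, ran from 126.9 to 311.7 CPM (median 214.4) in high-Gcg females and from 31.6 to 356.01 CPM (median 117.8) in low-Gcg females. For males the range was from 65.7 to 298.9 CPM (median 140.02) in high-Gcg males and from 17.2 to 147.4 CPM (median 59.3) in low-Gcg males, and the difference was 1.00 ± 0.08 (SE, adjusted p = 3.46e-24). All 47 high libraries of each sex exceeded the low median. Sst, the gene of somatostatin, ran from 602 to 5429 CPM (median 1358) in high-Gcg females and from 359.9 to 5406 CPM (median 1266) in low-Gcg females. The male values ran from 280.3 to 3696 CPM (median 1138) in high-Gcg males and from 84.9 to 2231 CPM (median 673) in low-Gcg males. These ranges overlapped almost wholly in females, and the difference was 0.48 ± 0.11 (SE, adjusted p = 0.000276), with 0.31 in females (adjusted p = 0.0897) and 0.73 in males (adjusted p = 0.00114). The ghrelin receptor Ghsr differed by 0.85 (adjusted p = 3.71e-11), the phosphatase Ptprz1 by 0.75 (adjusted p = 1.05e-11), Spock3 by 0.69 (adjusted p = 2.58e-09), the delta cell transcription factor Hhex by 0.57 (adjusted p = 1.5e-10) and the urocortin receptor Crhr2 by 0.54 (adjusted p = 2.46e-07). The leptin receptor Lepr was lower, at -0.39 (adjusted p = 1.09e-05).

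Of the 4 hormone genes of PP and epsilon cells 3 were higher (median 0.52). Ppy, the gene of pancreatic polypeptide, had medians of 1213 against 1056 CPM in females and 1165 against 581 CPM in males and differed by 0.52 ± 0.11 (SE, adjusted p = 5.29e-05). Pyy, the gene of peptide YY, differed by 0.69 ± 0.11 (SE, adjusted p = 2.22e-08) and Ghrl, the gene of ghrelin, by 0.53 ± 0.13 (SE, adjusted p = 0.000318). Npy did not pass, at 0.46 (adjusted p = 0.19). Of 11 pan-endocrine factors 3 were higher and 2 lower (median 0.03). These counts lie near the shares of all tested genes, 18.4% higher and 22% lower, so this list did not stand out. Fev and Isl1 were among the 3 that were higher. Fev, a factor of endocrine progenitors, differed by 0.95 ± 0.09 (SE, adjusted p = 5.3e-18), and Isl1, a factor of all islet endocrine cells, by 0.16 ± 0.04 (SE, adjusted p = 0.00179). All these values are shares of a library's counts, of which insulin RNA took less in the high group.

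Of 16 beta cell genes 7 were lower, with a median of -0.11. By edgeR 0 were higher (0 at an unadjusted p under 0.05, and 0 by limma on the variance-stabilised values, where 41.1% of all genes were called, 19.8% higher and 21.3% lower). Ins2 ran from 49861 to 102261 CPM (median 73252) in high-Gcg females and from 58960.3 to 135705 CPM (median 92195) in low-Gcg females. The male libraries ran from 54080.2 to 165549 CPM (median 93812) in high-Gcg males and from 77300.4 to 193986 CPM (median 112772) in low-Gcg males. The groups overlapped broadly, and the difference was -0.33 ± 0.04 (SE, adjusted p = 1.2e-10). Ins1 differed by -0.41 ± 0.06 (SE, adjusted p = 5.47e-10) and Iapp, the gene of amylin, by -0.24 ± 0.03 (SE, adjusted p = 1.19e-09). Ins1 and Ins2 had whole-number counts in 0% of libraries, so reads may be divided between these similar genes and their split is uncertain. The factor Nkx6-1 differed by -0.22 (adjusted p = 1.69e-05), the disulphide oxidase Ero1lb by -0.16 (adjusted p = 0.000258), the factor Pdx1 by -0.13 (adjusted p = 0.038) and the sulphonylurea receptor Abcc8 by -0.11 (adjusted p = 0.0342). Without the 15 libraries with the lowest Gcg z-scores (under -2), Pdx1 and Abcc8 did not pass, with adjusted p = 0.0577 and 0.0516. The glucose transporter Slc2a2 did not pass, at -0.05 (adjusted p = 0.603), nor did Ucn3, a gene of mature beta cells, at -0.04 (adjusted p = 0.559), or Mafa, at -0.08 (adjusted p = 0.713).

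**Figure D2:**
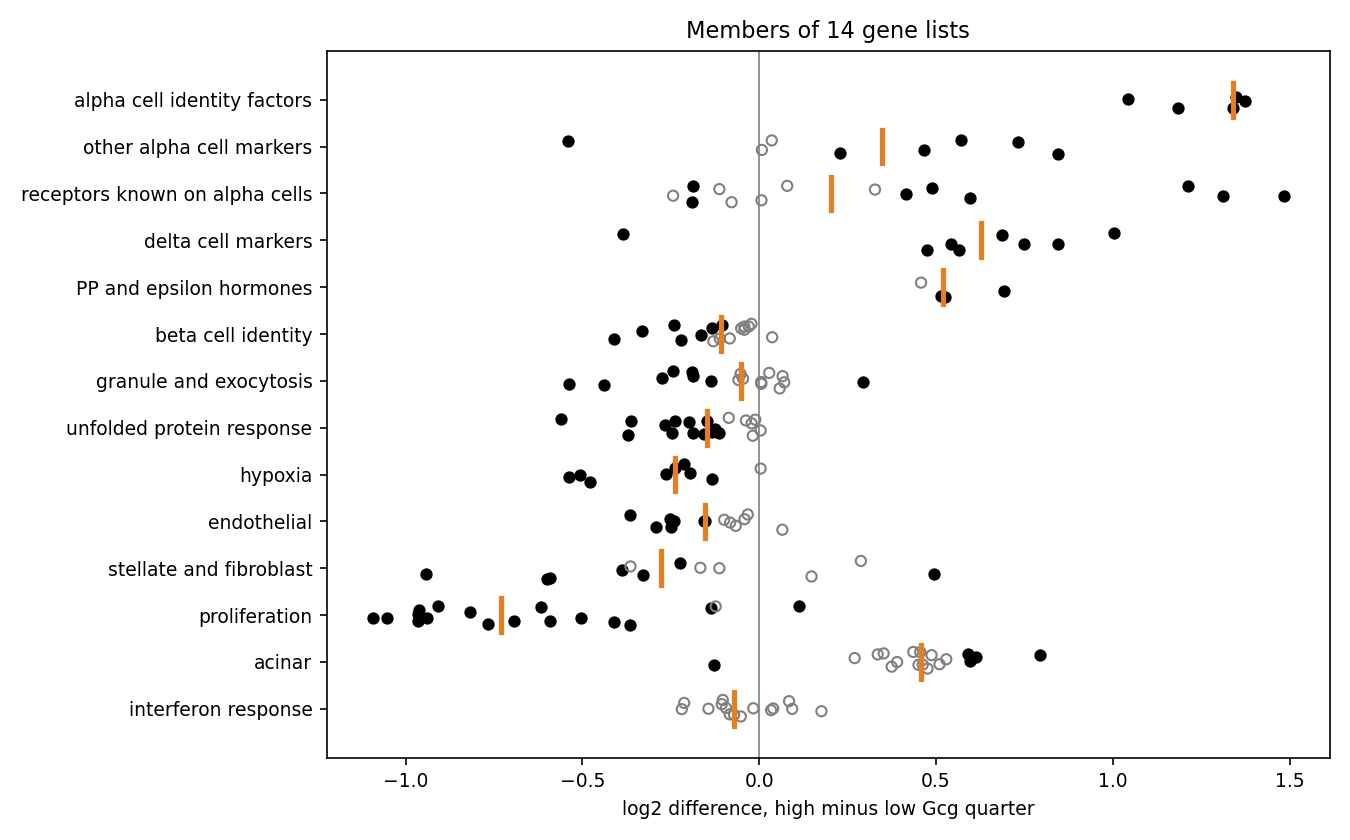
Each point is 1 gene of the list named on the vertical axis, placed by its log2 difference (high minus low Gcg group, both sexes) on the horizontal axis; filled points passed an adjusted p of 0.05, open points did not, and orange bars are list medians. The alpha cell factors lie furthest right (median 1.34) and the proliferation genes furthest left (median -0.73).

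Proliferation genes were lower in the high-Gcg group: 16 of 18 passed downwards and 1 upwards (median -0.73). On the deposited variance-stabilised values the same numbers were called by limma, with a median of -0.25. Mki67, the marker of cycling cells, ran from 1.39 to 8.89 CPM (median 2.83) in high-Gcg females and from 1.75 to 16.4 CPM (median 3.73) in low-Gcg females. Among males it ran from 1.33 to 6.84 CPM (median 2.83) in high-Gcg males and from 0.941 to 43.4 CPM (median 7.81) in low-Gcg males. All 47 male high libraries lay below the median of the male low libraries, which reached much higher, and the difference over both sexes was -0.97 ± 0.12 (SE, adjusted p = 1.58e-11). The centromere gene Cenpf differed by -1.05 ± 0.14 (SE, adjusted p = 5.9e-11), cyclin B1 (Ccnb1) by -1.09 ± 0.15 (SE, adjusted p = 2.13e-10) and the ribonucleotide reductase subunit Rrm2 by -0.62 ± 0.08 (SE, adjusted p = 7.87e-11). E2f1, a transcription factor of S phase entry, differed by -0.94 ± 0.09 (SE, adjusted p = 4.06e-18) and had the most negative rho with Gcg among named genes, at -0.55. Otoa, the gene of otoancorin, differed by -1.11 ± 0.12 (SE, adjusted p = 1.54e-14), with -1.02 in females and -1.21 in males.

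Of 19 genes of the unfolded protein response 13 were lower (median -0.15), where 22% of all tested genes were lower. In females alone, where 7.54% of all genes were lower, 3 of the 19 were. With a score of the alpha cell factors as covariate, 2 were lower and 2 higher (median 0.04), and the calls did not hold with a score of the delta cell markers (median -0.05). Examples were the chaperone partners Creld2 at -0.37 ± 0.08 (SE, adjusted p = 3.34e-05), Sdf2l1 at -0.36 ± 0.07 (SE, adjusted p = 1.61e-05) and Pdia6 at -0.19 ± 0.04 (SE, adjusted p = 0.000157), and the stress factor Atf3 at -0.56 ± 0.13 (SE, adjusted p = 0.000236), which is also an immediate early gene. The members that did not pass, named after their values were seen, were Hspa5 (-0.01), Hsp90b1 (-0.09), Pdia4 (0.004), Dnajb9 (-0.02), Xbp1 (-0.04) and Atf4 (-0.02). Derl3, a gene of the removal of misfolded proteins from the endoplasmic reticulum that was in no list, differed by -1.06 ± 0.15 (SE, adjusted p = 7.56e-10). Of 9 hypoxia genes 8 were lower (median -0.24), and 2 in females alone, where 7.54% of all genes were lower. The hypoxia calls did not hold with the delta cell score (median -0.12) or the alpha cell score (median 0.17). Among the genes that were lower were Ankrd37 at -0.51 (adjusted p = 6.01e-06) and Ndrg1 at -0.26 (adjusted p = 4.5e-07). Of 17 granule and exocytosis genes 7 were lower and 1 higher, among them the granule protein gene Chgb at -0.54 ± 0.08 (SE, adjusted p = 3.47e-09).

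Lists of markers of cells that are not endocrine are set against all tested genes, of which 18.4% were higher and 22% lower. With scores of 6 such lists (acinar, duct, endothelial, stellate and fibroblast, macrophage and lymphocyte) as covariates, 2339 genes were higher (13.8%) and 2631 lower (15.6%), 29.4% in all, and 69.3% of the calls without the scores were made with them in the same direction. Under these scores 5 of 5 alpha cell factors were higher (median 1.28), 7 of 8 delta cell markers were higher and 1 lower (median 0.55), and 15 of 18 proliferation genes were lower (median -0.56). Of the unfolded protein response and hypoxia genes 8 and 6 were lower. Without the scores, 7 of 13 endothelial genes were lower (median -0.15), including Plvap at -0.36 (adjusted p = 7.63e-10) and Flt1 at -0.29 (adjusted p = 3.07e-07). The summed level of that list ran from 439.7 to 988 CPM (median 609) in the high group and from 435 to 1253 CPM (median 641) in the low group. Of 12 stellate and fibroblast genes 6 were lower and 1 higher (median -0.28, or -0.11 by limma on the variance-stabilised values), with the pericyte gene Rgs5 at -0.60 (adjusted p = 1.51e-08), the smooth muscle actin gene Acta2 at -0.94 (adjusted p = 1.01e-06) and the growth factor receptor Pdgfrb at -0.39 (adjusted p = 1.25e-05). The 1 member that was higher, named after its values were seen, was Fbln1 at 0.49 (adjusted p = 0.00833), so the list did not move as 1. The summed level of this list ran from 69.1 to 281.6 CPM (median 142.7) in the high group. In the low group it ran from 78.4 to 1495 CPM (median 171.6). Of 18 acinar genes, most of which encode digestive enzymes of the exocrine pancreas, 4 were higher and 1 lower (median 0.46). The share that was higher is near that of all genes. With sex as the only covariate 13 acinar genes were higher and 1 lower, against 14.9% and 17.3% of all genes. Cela1 and Amy2a5 differed by 0.60 (adjusted p = 0.0311) and 0.79 (adjusted p = 0.0195) (Cela1 had an adjusted p of 0.0683 without the 15 libraries), and the acinar factor Bhlha15 by -0.13 (adjusted p = 0.00929). The acinar sum ran from 135.9 to 50571 CPM (median 4726) in the high group and from 232.1 to 44943 CPM (median 2554) in the low group, so both groups held libraries with much and with little exocrine RNA. Of 10 duct genes 2 were higher and 3 lower (median 0.16), near the shares of all genes, and of 12 macrophage genes 1 was lower, below that share. Of 15 interferon response genes edgeR called 0 in either direction (at an unadjusted p under 0.05, 0 higher and 0 lower, and by limma, 0 higher and 0 lower). No member of these lists was at 0 in every library.

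The difference between groups depended on sex for 3904 genes (23.1% of those tested), by the interaction of Gcg group with sex, coded male minus female. Of these, 1835 differences were more positive in males (10.9%) and 2069 more negative (12.2%). In males alone 3501 genes were higher (20.7%) and 3722 lower (22%), 42.6% in all, and in females alone 1207 (7.14%) and 1274 (7.54%), 14.7% in all. The median size of the log2 difference over all tested genes was 0.0787 in females and 0.144 in males. Gcg, which chose the libraries, itself differed by 1.39 in females and 1.79 in males. Of the interaction genes 86.6% had the larger difference in males, against 68.2% of all tested genes, and 57.6% had opposite signs in the 2 sexes, while 61.55% of all tested genes had the same sign in both. Without the 15 libraries with a Gcg z-score under -2, 2387 genes showed the interaction. As a slope per log2 unit of Gcg over all libraries, which puts both sexes on 1 scale of Gcg, 3975 genes showed it (23.5%).

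Aldh1a3 (chr7:66390890-66427517), an enzyme of retinoic acid synthesis that is used as a marker of beta cells that lose their identity, had the largest such dependence among the named genes. Its list of dedifferentiation and disallowed genes did not move as 1: of 11 tested, 4 were higher and 2 lower (median 0.20). In males alone 2 of the list were higher and 3 lower (median 0.01), and in females alone 4 higher and 0 lower (median 0.23). The interaction was called upwards for 1 member and downwards for 6. In females Aldh1a3 ran from 0.197 to 14.8 CPM (median 2.19) in high-Gcg females and from 0.29 to 24.8 CPM (median 1.98) in low-Gcg females. Male values ran from 0.388 to 21.4 CPM (median 2.05) in high-Gcg males and from 0.295 to 209.3 CPM (median 9.06) in low-Gcg males. The female groups had close medians, whereas the low-Gcg males had a higher median and a far higher top. The log2 differences were -0.13 in females (adjusted p = 0.766) and -3.28 in males (adjusted p = 1.64e-10), and the interaction was -3.12 ± 0.45 (SE, adjusted p = 8.88e-08). On the deposited variance-stabilised values the interaction was -1.66 by limma (adjusted p = 4.36e-05). Aldh1a3 had whole counts in only 1.06% of libraries, so its reads may be divided among features and its level is uncertain. Cyp26b1, an enzyme that breaks down retinoic acid, differed by -0.38 in females and -2.68 in males, with an interaction of -2.15 ± 0.52 (SE, adjusted p = 0.000966). C1qtnf1, a secreted protein of the C1q family, differed by -0.18 in females and -2.61 in males, with an interaction of -2.55 ± 0.34 (SE, adjusted p = 8.1e-09), which was -1.57 (adjusted p = 0.000118) without the 15 libraries. Gast, the gene of gastrin, differed by -0.31 in females and -2.51 in males, with an interaction of -2.43 ± 0.44 (SE, adjusted p = 1.19e-05). Its highest male low library was at 35.4 CPM against a median of 0.474, and the interaction on the variance-stabilised values was -0.48 by limma (adjusted p = 0.012). Serpina7, the gene of thyroxine-binding globulin, differed by -0.42 in females and -1.75 in males, with an interaction of -1.31 ± 0.24 (SE, adjusted p = 2.34e-05).

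The proliferation list differed between the sexes: the interaction was called downwards for 17 of its 18 genes and upwards for 1. In females alone 1 was lower (median -0.21), and in males alone 1 was higher and 17 lower (median -1.30). E2f1, outside this list, was lower in both sexes, at -0.64 in females (adjusted p = 9.78e-06) and -1.25 in males (adjusted p = 8.98e-13). For Mki67 the differences were -0.29 in females (adjusted p = 0.0634) and -1.67 in males (adjusted p = 2.58e-11) and the interaction was -1.40 ± 0.21 (SE, adjusted p = 5.87e-07). Of the 12 stellate and fibroblast genes the interaction was called downwards for 9, with list medians of 0.35 in females and -0.69 in males.

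Some alpha cell markers differed between groups in 1 sex more than in the other. Gc ran from 53.8 to 277.3 CPM (median 111.2) in high-Gcg females and from 35.7 to 243.4 CPM (median 83.6) in low-Gcg females. For males the range was from 36.6 to 237.4 CPM (median 96.7) in high-Gcg males and from 80.3 to 957 CPM (median 175.7) in low-Gcg males, with the low libraries higher. Its differences were 0.29 in females (adjusted p = 0.0782) and -1.47 in males (adjusted p = 2.41e-10), and the interaction was -1.82 ± 0.22 (SE, adjusted p = 1.23e-10). Slc38a5 had differences of 1.42 in females (adjusted p = 5.69e-12) and 0.00 in males (adjusted p = 0.999) and an interaction of -1.51 ± 0.25 (SE, adjusted p = 1.71e-06). The differences of Ttr were 1.13 in females and 0.51 in males, with an interaction of -0.66 (adjusted p = 0.00261). Tmem27 had differences of 0.19 in females (adjusted p = 0.00091) and -0.22 in males (adjusted p = 0.0373) and an interaction of -0.42 (adjusted p = 0.000729). Pappa2, a protease of insulin-like growth factor binding proteins, showed no called difference over both sexes but differences of 0.76 in females (adjusted p = 8.69e-13) and -0.87 in males (adjusted p = 2.25e-05), with an interaction of -1.68 ± 0.19 (SE, adjusted p = 6.41e-12).

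**Figure D3:**
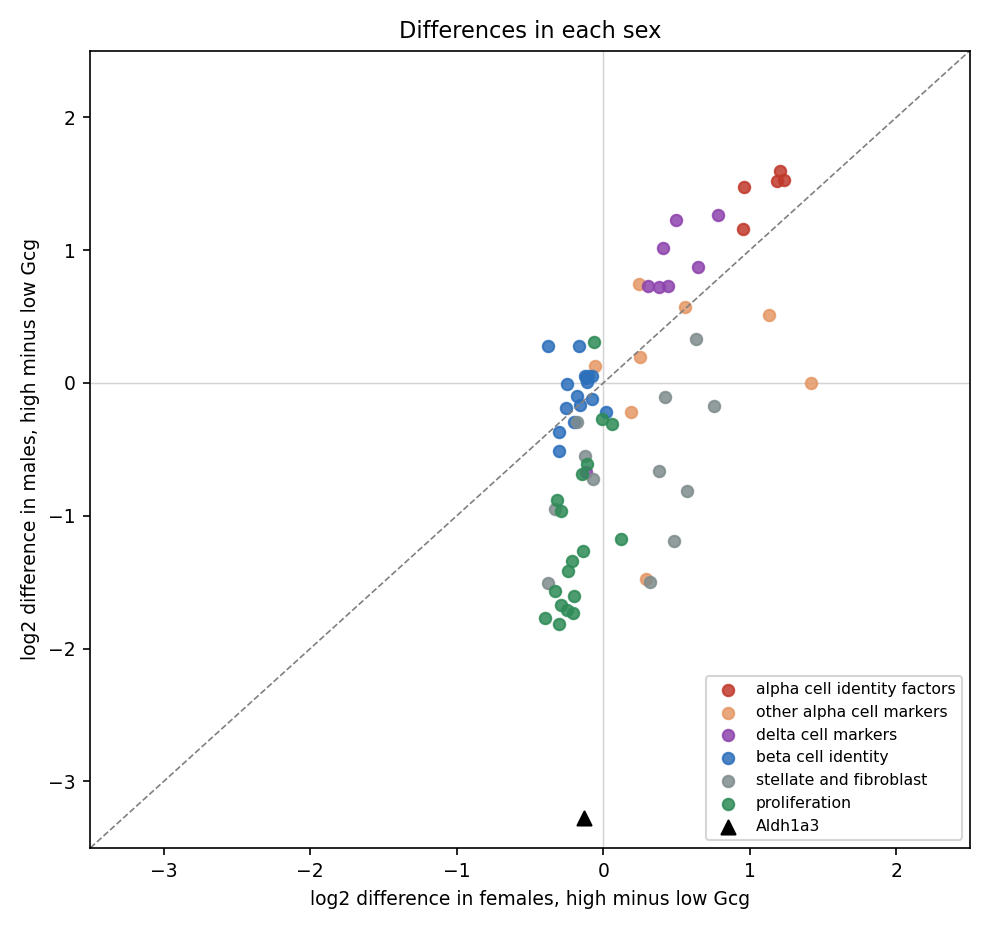
Each point is 1 gene, placed by its log2 difference between Gcg groups in females (horizontal axis) and in males (vertical axis); colours mark 6 lists, the triangle is Aldh1a3 and the dashed line is equality. Alpha cell factors lie near the line at the upper right. Proliferation genes lie between -0.40 and 0.12 in females and as low as -1.81 in males, and Aldh1a3 lies at -3.28 in males.

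**Figure D4:**
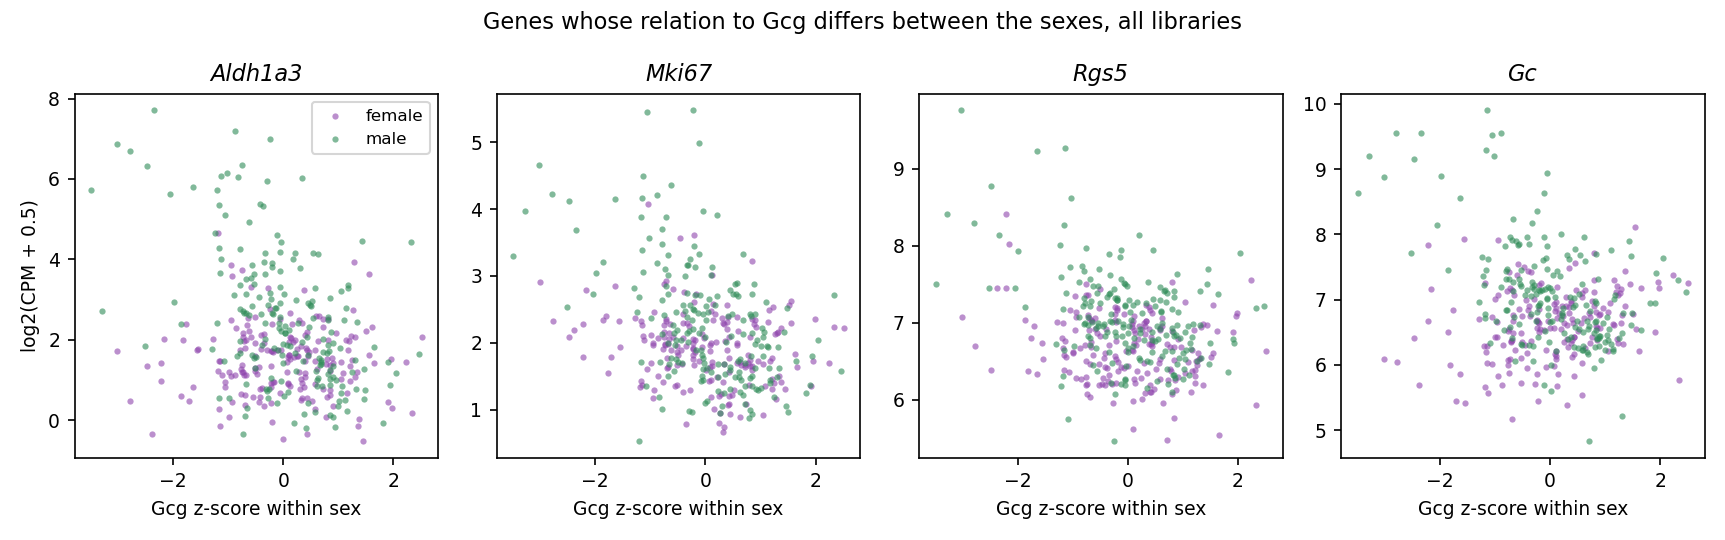
Values of Aldh1a3, Mki67, Rgs5 and Gc, as log2(CPM + 0.5), against the Gcg z-score within sex in all libraries, coloured by sex. The 4 highest values of each gene belong to males with a z-score below 0.

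The genes with the smallest interaction p in the positive direction had a more positive difference in males. They were Igf2bp2, an RNA-binding protein gene, with -0.06 in females and 1.20 in males and an interaction of 1.24 (adjusted p = 7.07e-07), Homer1, a synaptic scaffold gene, with -0.09 in females and 0.45 in males and an interaction of 0.53 (adjusted p = 7.07e-07), and Mgat2, Cnbp and Akirin1 with interactions of 0.40 (adjusted p = 2.11e-07), 0.39 (adjusted p = 5.91e-07) and 0.37 (adjusted p = 7.55e-07). In the negative direction they included the ubiquitin ligase gene Rnf112, with an interaction of -1.39 (adjusted p = 1.9e-08), and the condensin subunit Ncapd2, with 0.01 in females and -0.56 in males.

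Over all libraries 3834 genes rose with Gcg (22.7% of 16926 tested) and 4595 fell with it (27.1%), 49.8% in all, as a slope per standard deviation. Within the 190 middle libraries, which the groups did not use, 0.987% of 16924 genes rose and 0.762% fell, 1.75% in all. Of the genes called there, 88.9% were called in the same direction between the high and low groups. Between the groups, 40.5% of all tested genes were called in either direction. In reverse, 3.84% of the 6845 calls between the groups recurred in the middle libraries in the same direction. The slope rests on the same Gcg values that chose the groups. All 5 alpha cell factors rose with Gcg in the middle libraries (median slope 0.54 log2 units per standard deviation). Of 8 delta cell markers 2 rose, and of 18 proliferation genes 10 fell. In the unfolded protein response, hypoxia, endothelial, and stellate and fibroblast lists 0 genes were called.

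With a summary score of the 5 alpha cell factors added as a covariate, 1670 genes were higher (9.88%) and 1926 lower (11.4%), 21.3% in all, of which 1364 genes were called in the same direction without it (19.9% of the 6845). This score is built from genes that differed between the groups, and the difference of its own members under it is fixed by its construction. Its members follow Gcg, which chose the libraries, so other genes that follow Gcg can lose their calls under it too. Such a loss names no cause. Under it Rbp4 was at 0.21 (adjusted p = 0.15), Sst at -0.44 (adjusted p = 0.0521) and Ppy at -0.43 (adjusted p = 0.0376), and of the 18 proliferation genes 1 was lower. Mki67 was then at -0.03 (adjusted p = 0.944), E2f1 at -0.06 (adjusted p = 0.8) and Aldh1a3 at -0.45 (adjusted p = 0.493). With a delta cell score instead, 1199 genes were higher (7.09%) and 1301 lower (7.69%), 14.8% in all. Of the 18 proliferation genes 12 were then lower. Mki67 was at -0.47 (adjusted p = 0.0118), E2f1 at -0.53 (adjusted p = 3.58e-05) and Aldh1a3 at -0.80 (adjusted p = 0.108). With the alpha cell score Avpr1b was at 0.69 (adjusted p = 0.000322, against 1.48 without it) and Sstr2 at 0.54 (adjusted p = 5.74e-06, against 1.31).

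The genes beside Gcg on chromosome 2 were examined because they share its surroundings. Of 11 tested genes within 2 Mb, 4 were higher and 2 lower, with a median of 0.114. The nearest on either side, the proteases Fap at 17.3 kb and Dpp4 at 62.3 kb, did not pass, at -0.11 (adjusted p = 0.485) and 0.13 (adjusted p = 0.258). The largest difference among the 11 was that of the integrin gene Itgb6, at 0.45 ± 0.08 (SE, adjusted p = 3.83e-06), 1751.9 kb away.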

How the data were processed

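Poly(A)-selected RNA of pancreatic islets was sequenced in 378 libraries. Per the labels' protocols, ERCC control RNA was added before library construction. The authors deposited estimated counts per gene (expected counts), of which 67.7% are whole numbers, and variance-stabilised values on a log2 scale. The deposited tables hold 22180 genes with coordinates on GRCm38. Per the submitters' processing notes the build was GRCm38 and DESeq2 was among the tools. For the aligner and the counting tool, names were not given in the sources used here.

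Libraries were ranked by Gcg in the deposited log2 values. The expected counts were rounded and tested with edgeR 4.0.16 (R 4.3.3): low genes were dropped by filterByExpr, libraries scaled by TMM and p-values from the quasi-likelihood F test adjusted by Benjamini-Hochberg (threshold 0.05). Covariates were sex and the number band, the band being an addition to sex alone. The labels do not say what such a band means. Adjusted p-values of single genes come from edgeR where no other tool is given. Library properties were permuted within sex and band (100000 resamples, Python 3.11.15, NumPy 2.4.6, SciPy 1.17.1).

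Named are all members of the alpha, delta, PP, epsilon and beta cell lists, up to 4 members of each other list with the smallest adjusted p, the 12 genes per direction with the largest difference and the 12 with the smallest p (with a mean of 2 CPM or more, 1 sign throughout the 4 bands and both sexes, and no placeholder symbol), 5 interaction genes per direction, the 10 genes with the highest and 5 with the lowest correlation with Gcg, and 4 neighbours with the nearest on each side; not all are printed, and some items are not reported here. The members and the 33 gene lists were chosen with earlier results of these data known. On simulated counts the test recovered 50%, 76%, 94% and 98% of 50 genes each changed 1.1-, 1.25-, 1.5- and 2-fold. The simulation held 16912 genes, of which 200 were changed, and 3 of the unchanged genes were called. Each gene was drawn independently of the others. The simulation therefore does not show how the test behaves where many genes move together, as in these libraries. Alternatives comprised DESeq2 1.42.0, limma 3.58.1 (voom, and on the deposited log2 values), other scalings, filters, rankings, covariates, single bands and single sexes. Depth leaves genes of few counts with wide errors. Promoter windows came from RefSeq on GRCm38.p6. Leaving out the libraries with a Gcg z-score under -2, or each gene's highest library, was chosen after seeing the data.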

Additional observations from a re-analysis of the deposited data

Results flagged for a closer look

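The log2 difference between the high- and low-Gcg groups depended on sex for 3904 genes, and 42 of the 90 genes refitted under the alternatives are among them; values below are male minus female interactions, with adjusted p from edgeR's quasi-likelihood test. Of the alpha cell genes and those that followed Gcg, more positive differences in males were found for Avpr1b at 0.53 (adjusted p = 0.0447), Sgce at 0.37 (adjusted p = 0.0061), Peg10 at 0.52 (adjusted p = 0.018), Mctp2 at 0.38 (adjusted p = 0.0389) and Galnt13 at 0.51 (adjusted p = 0.011). More negative ones were found for Ttr at -0.66 (adjusted p = 0.00261), Slc38a5 at -1.51 (adjusted p = 1.71e-06), Gc at -1.82 (adjusted p = 1.23e-10), Tmem27 at -0.42 (adjusted p = 0.000729) and Pcsk2 at -0.18 (adjusted p = 0.0109).

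Among delta and beta cell genes the interaction was 0.48 (adjusted p = 0.0157) for Rbp4, 0.74 (adjusted p = 0.00511) for Ghsr, 0.61 (adjusted p = 0.0144) for Spock3, -0.57 (adjusted p = 0.00209) for Lepr and -0.23 (adjusted p = 0.0287) for Abcc8. Outside those lists it was -3.12 (adjusted p = 8.88e-08) for Aldh1a3, -2.43 (adjusted p = 1.19e-05) for Gast, -2.15 (adjusted p = 0.000966) for Cyp26b1 and -2.55 (adjusted p = 8.1e-09) for C1qtnf1. It was -1.07 (adjusted p = 0.00228) for Derl3, -1.31 (adjusted p = 2.34e-05) for Serpina7 and -0.69 (adjusted p = 0.000214) for Chgb. Among proliferation genes it was -1.40 (adjusted p = 5.87e-07) for Mki67, -1.53 (adjusted p = 9.47e-07) for Cenpf, -1.37 (adjusted p = 6.8e-05) for Ccnb1 and -0.69 (adjusted p = 0.000363) for Rrm2. For E2f1 and Ncapd2, which are outside the proliferation list, it was -0.61 (adjusted p = 0.00465) and -0.58 (adjusted p = 2.96e-08).

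Stress, vessel and stromal genes gave -0.50 (adjusted p = 0.00899) for Creld2, -0.75 (adjusted p = 0.00148) for Ankrd37, -0.31 (adjusted p = 0.0111) for Flt1, -0.64 (adjusted p = 0.00437) for Rgs5, -1.23 (adjusted p = 0.00189) for Acta2 and -0.67 (adjusted p = 0.000287) for Pdgfrb. Of the remaining genes, Pappa2 gave -1.68 (adjusted p = 6.41e-12), Rnf112 -1.39 (adjusted p = 1.9e-08), Akirin1 0.37 (adjusted p = 7.55e-07), Mgat2 0.40 (adjusted p = 2.11e-07), Cnbp 0.39 (adjusted p = 5.91e-07), Homer1 0.53 (adjusted p = 7.07e-07), Igf2bp2 1.24 (adjusted p = 7.07e-07) and Itgb6 0.74 (adjusted p = 0.000236). Gcg itself was further apart between the groups in males than in females, by log2 differences of 1.79 and 1.39. As a slope per log2 unit of Gcg over all libraries, an alternative chosen after seeing the data, the interaction did not pass for Sgce, Peg10, Mctp2, Galnt13, Spock3, Abcc8, Flt1 and Avpr1b, and for Avpr1b it had the other sign, at -0.04 (adjusted p = 0.807). It was -0.56 (adjusted p = 0.00031) for Mki67 and -0.84 (adjusted p = 2.24e-11) for Gc. Without the 15 libraries with a Gcg z-score under -2, the interaction did not pass for Avpr1b, Peg10, Mctp2, Pcsk2, Rbp4, Abcc8, Acta2 and Creld2.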

How the results depend on the processing

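Of the named genes in the text, 90 were refitted under 23 alternatives. Each of DESeq2, median-ratio size factors, library sizes without hormone genes, no filter on low counts, groups ranked within each sex and the log2 total count as covariate left all 90 with their direction and side of the threshold. The shares of tested genes higher and lower (18.4% and 22%) were 7.14% and 7.54% in females alone, 7.51% and 6.69%, 4.3% and 3.67%, 5.8% and 5.75% and 3.21% and 4.46% in number bands 1 to 4 alone, 9.88% and 11.4% with the alpha cell factor score, and 7.09% and 7.69% with the delta cell score. As slopes over the middle libraries they were 0.987% and 0.762%, also against the slopes over all libraries (22.7% and 27.1%). Smaller numbers of libraries enter the single-sex, single-band and middle fits, and the middle libraries span less of the Gcg range. The share with a sex interaction (23.1%) was 14% (2387 genes) without Gcg z-scores under -2, an alternative chosen after seeing the data, and the cause was not tested.

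With the same direction, calls were lost for 29 of the 88 to 90 genes fitted with the alpha cell factor score, 34 with the delta cell score, 9 with the 6 cell type scores, 22 in females, 7 in males, 24, 31, 25 and 37 in bands 1 to 4 and 49 in the middle libraries. Signs turned as follows, and the cause was not tested except where given. Members of a score are conditioned on themselves, which fixes their values and says nothing of their stability: -0.30 for Irx1 and -0.09 for Pou3f4 with the alpha cell factor score, and -0.37 for Sst, -0.04 for Hhex and -0.10 for Crhr2 with the delta cell score. With the alpha cell factor score the log2 difference of other genes was -0.24 for Higd1a, 0.49 for Gc, -0.44 for Sst, -0.09 for Ghsr, 0.12 for Lepr, -0.43 for Ppy, -0.39 for Pyy, -0.22 for Fev, -0.01 for Isl1, 0.04 for Iapp, 0.07 for Ero1lb, 0.31 for Gast, 0.30 for C1qtnf1, 0.03 for Rrm2, 0.24 for Derl3, 0.04 for Serpina7, 0.13 for Chgb, 0.07 for Creld2, 0.22 for Pdia6, 0.45 for Atf3, 0.22 for Rgs5, 0.47 for Acta2, 0.01 for Flt1, 0.27 for Ankrd37, 0.06 for Ndrg1, 0.59 for Pappa2 and 0.28 for Rnf112. With the delta cell score it was 0.05 for Gc, 0.44 for Pappa2 and 0.10 for Rnf112, and with 6 cell type scores 0.29 for Pappa2. In females it was 0.29 for Gc, 0.02 for Abcc8, -0.14 for Akirin1, -0.09 for Mgat2, -0.06 for Cnbp, -0.09 for Homer1, -0.06 for Igf2bp2, 0.76 for Pappa2, 0.37 for Rnf112 and 0.01 for Ncapd2, and in males -0.22 for Tmem27. It was 0.0048 for Abcc8, -0.09 for Amy2a5 and -0.0012 for Mgat2 in band 2 and 0.04 for Pdx1 in band 3. The slope over the middle libraries was -0.0016 for Spock3, 0.04 for Abcc8, 0.08 for Acta2 and 0.01 for Flt1.

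No paired analysis was possible because no mouse number occurs in both sexes and the libraries of the 2 groups form no pairs.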

Other observations

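Other gene lists gave these counts against the background of 18.4% higher and 22% lower. Of 7 Schwann cell genes 4 were higher and 1 lower (median 0.29), with the glial factor Sox10 at 0.59 (adjusted p = 0.000424). Of 13 mitochondrially encoded genes 3 were higher. Of 20 nuclear genes of oxidative phosphorylation 2 were higher and 6 lower (median -0.02), and of 11 genes of fatty acid oxidation 3 were higher and 4 lower (median 0.01). Of 14 cholesterol synthesis genes 3 were lower (median -0.02), and of 14 clock genes 1 was higher and 3 lower (median -0.06). Of 13 genes of amino acid transport and response 1 was higher and 3 lower (median -0.03).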
